A study of Mus musculus with 2 samples.

Results

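The cell cycle set described here holds 44 genes that drive or restrain passage through the division cycle: cyclins, cyclin-dependent kinases (Cdks), Cdk inhibitors, retinoblastoma pocket proteins, E2f transcription factors, Cdc25 phosphatases and Wee1. The genes were chosen by symbol and matched to Ensembl gene identifiers, and all 44 were found among the 43346 mouse genes of the tables. Total RNA was measured in 1 group only, hematopoietic stem cells of adult male C57BL/6J mice aged 5 to 6 weeks, with no transgene, treatment or second genotype in the labels. That group has 2 libraries, replicates 1 and 2, each made from a pool of 100 cells. The labels number them as biological replicates and give them different biosample identifiers. Both also carry the same donor identifier, and the labels do not say whether separate animals were pooled. The spread between them may therefore be technical, in part or in whole. Levels are TPM, transcripts per length unit scaled to the same sum in every library, and values are given for replicate 1 and then replicate 2, with means ± SD over n = 2.

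Cyclins are the regulatory subunits that switch on Cdks. D-type cyclins with Cdk4 and Cdk6 phosphorylate the pocket proteins in G1, which releases E2f factors from repression. Cyclin E with Cdk2 then starts S phase, and cyclins A and B with Cdk2 and Cdk1 carry the cell through S, G2 and M. Ink4 proteins block Cdk4 and Cdk6, Cip/Kip proteins act mainly on Cdk2 complexes, and Wee1 holds Cdk1 and Cdk2 inactive until Cdc25 phosphatases remove the inhibitory phosphate. Adult hematopoietic stem cells are known for dividing rarely, and D cyclins, Cdk6, p57 (Cdkn1c), p27 (Cdkn1b), p18 (Cdkn2c) and the pocket proteins are the members most studied in that setting.

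E2f factors bind a short GC-rich element in the promoters of many genes of this set, and some of the set's own promoters carry it. Promoter windows from RefSeq (assembly GRCm38.p6, 250 bases before to 50 bases after a start, 300 bases in all) were available for 32 of the 44 genes, in 38 windows. One of the words TTTCGCGC, TTTGGCGC, TTTCCCGC or TTTGCCGC, on either strand, stood in 8 of these windows (21.1%), against 744 of all 32851 windows (2.26%). The genes were Rbl1, Cdk1, Cdk2, Cdc25a, E2f2, E2f3, E2f7 and Cdkn2a. The word TTTGAA, the core of the CHR element of late cell cycle genes, was in 9 windows (23.7%), against 17.9% of all windows, and CCAAT was in 22 (57.9%), against 37.4%. The windows of a pocket protein, the mitotic kinase and an activating E2f are shown because they hold the word in genes that both libraries expressed. Capitals mark the E2F word, which in the E2f3 window lies on the opposite strand. Rbl1 lies on chr2:157204485-157204784, Cdk1 on chr10:69352863-69353162 and E2f3 on chr13:29986014-29986313, all read 5′ to 3′ on the minus strand.
Rbl1 promoter: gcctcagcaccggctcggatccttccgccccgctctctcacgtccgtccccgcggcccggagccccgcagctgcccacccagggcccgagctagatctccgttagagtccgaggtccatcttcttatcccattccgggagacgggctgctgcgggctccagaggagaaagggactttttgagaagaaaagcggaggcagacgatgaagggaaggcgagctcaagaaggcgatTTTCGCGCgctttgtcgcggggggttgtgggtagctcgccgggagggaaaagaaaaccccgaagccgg
Cdk1 promoter: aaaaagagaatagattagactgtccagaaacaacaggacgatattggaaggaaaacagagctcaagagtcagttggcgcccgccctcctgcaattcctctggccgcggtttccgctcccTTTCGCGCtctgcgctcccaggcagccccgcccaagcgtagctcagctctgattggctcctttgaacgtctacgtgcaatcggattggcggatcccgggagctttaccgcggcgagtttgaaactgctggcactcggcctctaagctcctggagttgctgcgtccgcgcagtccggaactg
E2f3 promoter: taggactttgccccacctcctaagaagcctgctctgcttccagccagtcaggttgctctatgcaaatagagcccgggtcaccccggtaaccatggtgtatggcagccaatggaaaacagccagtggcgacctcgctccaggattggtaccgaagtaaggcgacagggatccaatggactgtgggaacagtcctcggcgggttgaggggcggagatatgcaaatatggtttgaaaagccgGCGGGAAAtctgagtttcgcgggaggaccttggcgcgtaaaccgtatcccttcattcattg
A matched word describes these letters and is not evidence of binding, which was not measured. The Cdkn2a window also holds a word, and that gene had no count in either library.

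The libraries summed to 48313341 and 28947093 expected counts (reads assigned to genes by estimation), of which the 44 genes took 104011 and 54382. That was 0.533% of the counts on nuclear protein coding genes in replicate 1 and 0.522% in replicate 2. As a check of the label, 12 of 13 stem cell markers were detected in both libraries, against 45.5% of nuclear protein coding genes. The exception was Slamf1 at 2.87 and 0.36 TPM. Tek (1.94 and 1.71 TPM), Fgd5 (2.12 and 3.91 TPM) and Procr (3.29 and 6.48 TPM) were detected at low levels. The list's summed level was 668 and 496 TPM, with the highest means in Hlf, Kit, Cd34 and Meis1. Erythroid markers were detected as well, 9 of 9 with sums of 2391 and 2144 TPM, and so were early myeloid markers, 6 of 6 with sums of 558 and 1578 TPM. Mature neutrophil and monocyte markers summed to 5.11 TPM in replicate 1, where S100a8, Ltf, Cd177, Mmp8 and Mmp9 had no count, and to 346 TPM in replicate 2, where Mmp8 had none, with 1 of 10 detected in both. B cell markers summed to 9.08 and 32.6 TPM, with 2 of 6 detected in both and Igll1, Cd79b and Pax5 at 0 in replicate 1. T and NK markers summed to 51.4 and 63.1 TPM, with 2 of 5 detected in both and Cd3e and Cd3g at 0 in replicate 2. In pools of this kind, fewer cells of a type and less RNA per cell cannot be told apart.

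Most of the cell cycle set was expressed in both libraries. Detection required both 1 TPM and 10 expected counts in a library, and 38 of the 44 genes (86.4%) reached that in both, against 45.5% of 21461 nuclear protein coding genes. Cdkn3, Cdkn2d and E2f5 reached it in replicate 2 only, and Ccna1, Cdkn2a and Cdkn2b in neither library. No gene of the set was detected in replicate 1 alone. The median over all 44 genes was 21.7 and 16.7 TPM in replicates 1 and 2 (19.2 ± 3.56 TPM), against 0.19 and 1.02 TPM over all nuclear protein coding genes. Restricted to coding genes detected in both, those medians were 14.0 and 12.5 TPM.

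**Figure D1:**
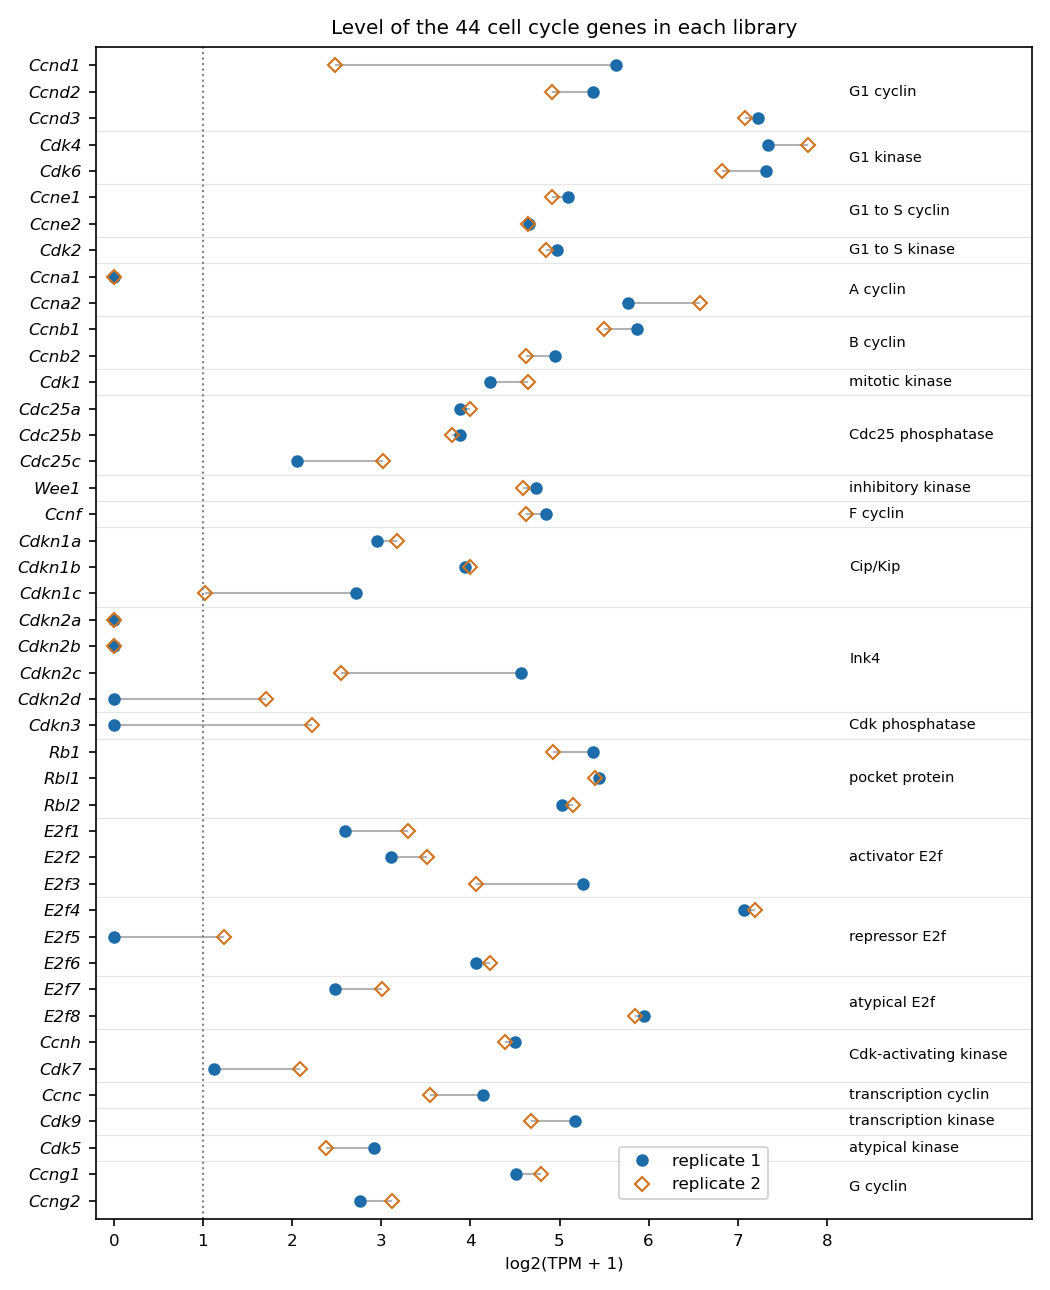
Level of each of the 44 genes on the log2(TPM + 1) scale (horizontal axis) in replicate 1 (filled circles) and replicate 2 (open diamonds), ordered by role from G1 cyclins at the top, with a dotted line at 1 TPM. Cdk4, Ccnd3, E2f4 and Cdk6 lie furthest right in both libraries, and the longest gap between libraries is that of Ccnd1.

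Sorted by what the proteins do, activating genes had a higher median than inhibiting ones when all members were counted. The 21 activators (cyclins D, E, A, B and H, Cdk1, Cdk2, Cdk4, Cdk6, Cdk7, the Cdc25 phosphatases and E2f1 to E2f3) had medians of 29.9 and 23.6 TPM, and 20 of them were detected in both libraries. The 17 inhibitors (Cip/Kip and Ink4 genes, Cdkn3, pocket proteins, Wee1 and E2f4 to E2f8) had medians of 14.4 and 8.04 TPM, and 12 were detected in both. On the log2(TPM + 1) scale the difference of the medians was 1.00 in replicate 1 and 1.44 in replicate 2, a mean of 1.22 ± 0.31 that exceeded the SD. With 2 libraries an exact sign-flip test cannot give a p under 0.5, so none is given here. The difference rested on the genes that were not detected in both libraries: without them it was 0.26, less than the SD of 0.31, and on a scale not adjusted for length (TMM-scaled counts) it was 0.41.

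By phase, the 24 genes of G1 and of the G1 to S step had medians of 27.2 and 15.4 TPM, and the 13 genes of S, G2 and M had 17.6 and 23.1 TPM. The order of these groups was opposite in the 2 libraries. Among activators alone, the 7 of S, G2 and M stood at 17.6 and 23.6 TPM and the 12 of G1 at 35.2 and 25.9 TPM. Their log2 difference, S, G2 and M minus G1, was -0.96 and -0.13, a mean of -0.54 ± 0.59 that lay within the spread. Inhibitors of G1, 12 genes of which 8 were detected in both libraries, had medians of 10.6 and 6.44 TPM. The 5 inhibitors of S, G2 and M had 15.7 and 17.6 TPM.

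Among the D cyclins, the partners of Cdk4 and Cdk6, Ccnd3 had the highest TPM. It stood at 149 TPM in replicate 1 and at 135 TPM in replicate 2 (142 ± 10.2 TPM), from 6108 and 3951 counts. Part of that TPM lay on 2 short transcripts annotated as coding. Ccnd3-210 (464 bases) held 30.4 and 0 TPM, from 332.76 and 0 counts. Ccnd3-217 (385 bases) held 33.3 and 19.5 TPM, from 280.34 and 90.12 counts. Ccnd2 was at 40.4 and 29.1 TPM (34.7 ± 7.99 TPM), all on its single annotated transcript, Ccnd2-201. Its counts were 7228 and 2940, more than those of Ccnd3 in replicate 1 and fewer in replicate 2. The log2 ratio of Ccnd2 over Ccnd3, with 0.1 TPM added to each, was -1.88 and -2.21 (-2.05 ± 0.23). In TPM, Ccnd3 was thus higher than Ccnd2 in both libraries by far more than the spread. Ccnd3 made up 62.7% of the summed D cyclin TPM in replicate 1 and 80.0% in replicate 2, and Ccnd1 20.4% and 2.71%. On coding transcripts alone the share of Ccnd3 was nearly the same in both, 77.4% and 78.9%.

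Ccnd1 had the largest difference between the libraries on the log2(TPM + 1) scale, at 48.6 TPM in replicate 1 and at 4.57 TPM in replicate 2, from 543 and 235 counts. The transcript tables assign these reads to different products of the gene, which lies at chr7:144929931-144939925 on the minus strand (GRCm38). In replicate 1, 541.75 of the counts were on Ccnd1-202, a retained-intron transcript of 470 bases annotated in GENCODE, and 1.25 on Ccnd1-201, the coding transcript of 3740 bases. In replicate 2 the split was 6.72 counts on Ccnd1-202 and 228.28 on Ccnd1-201. On the coding transcript alone, Ccnd1 was thus at 0.01 TPM in replicate 1 and at 3.48 TPM in replicate 2, the opposite order to that of the gene's total. The first 125 bases of Ccnd1-202 (chr7:144938073-144938197, minus strand, GRCm38) are shown because its reads carry the high value; capitals mark the 95 bases that are intron in Ccnd1-201, and lower case the first 30 bases of the exon that follows.
Ccnd1-202 start: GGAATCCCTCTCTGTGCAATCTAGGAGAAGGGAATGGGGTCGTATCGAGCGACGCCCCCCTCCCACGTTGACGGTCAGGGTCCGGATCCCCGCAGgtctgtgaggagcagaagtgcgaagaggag
The exons of Ccnd1 also share 1100 bases with those of LTO1 on the opposite strand, a gene with 117 and 197 counts, and how strand was handled is not stated in the labels.

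Of the role groups, the G1 kinases had the highest median TPM in both libraries. By the mean of single genes, Ccnd3 and E2f4 stood between Cdk4 and Cdk6. Cdk4 stood at 160.5 TPM in replicate 1 and at 219 TPM in replicate 2 (190.0 ± 41.7 TPM), the highest mean of all 44 genes. Cdk6 was at 159 and 112 TPM (136 ± 32.7 TPM), with 16460 and 6919 counts, the most of any member. The log2 ratio of Cdk6 over Cdk4 was -0.02 and -0.96, a mean of -0.49 ± 0.67 that did not exceed the spread. The order turned when coding transcripts alone were counted: those carried 38.1% and 48.6% of Cdk4's TPM but all of Cdk6's, and the ratio was then 1.37 and 0.08. Both forms of the ratio rest on the deposited lengths, in which Cdk6-202, with 70.04% and 83.08% of the gene's TPM, has 3735 bases, whereas GENCODE M21 gives it 11525; the ratio at that length was not computed. Cdk4-201, which is coding, led in replicate 1 with 38.1% of the gene's TPM, and the retained-intron transcript Cdk4-209 led in replicate 2 with 26.6%. Cdk4 exons share 641 bases with Tspan31 on the opposite strand, which had 1389 and 585 counts.

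Of the G1 to S genes, Ccne1 had 33.1 and 29.1 TPM and Ccne2 24.2 and 24.0 TPM. Both encode the E cyclins that activate Cdk2, and the log2 ratio of Ccne1 over Ccne2 was 0.46 and 0.28 (0.37 ± 0.13). On coding transcripts the gap was wider, 2.02 and 1.26, since the processed transcript Ccne2-205 led Ccne2 in both libraries with 65.8% and 39.5% of its TPM. Cdk2 itself was even between libraries, at 30.3 and 27.8 TPM (29.1 ± 1.72 TPM), although its leading transcript was Cdk2-202 with 70.6% in replicate 1 and Cdk2-201 with 72.2% in replicate 2. Cdc25a, the phosphatase that activates Cdk2, was at 13.8 and 15.0 TPM.

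Genes of S, G2 and M were present in both pools. Ccna2, the A cyclin of dividing somatic cells, was at 53.6 TPM in replicate 1 and at 94.3 TPM in replicate 2. The coding transcript Ccna2-201 had nearly the same level in the 2 libraries, 52.7 and 55.5 TPM, and most of the rest in replicate 2 was on Ccna2-203, a nonsense-mediated decay transcript at 0.84 and 23.9 TPM. Ccna1, the A cyclin of the germ line, had no count in either library, which allows at most 0.0648 and 0.115 TPM (3 counts in each).

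The B cyclins, which activate Cdk1 for mitosis, kept a steady proportion between the libraries. Ccnb1 was at 57.3 and 44.4 TPM (50.8 ± 9.11 TPM) and Ccnb2 at 29.9 and 23.6 TPM (26.7 ± 4.45 TPM). Their log2 ratio, Ccnb1 over Ccnb2, was 0.94 and 0.91 (0.92 ± 0.02). It was smaller on coding transcripts, 0.35 and 0.33, of which Ccnb1 had 66.7% of its TPM in both libraries. Ccnb1 was also the only member whose gene counts were not whole numbers, 3262.42 and 1291.74, which means that reads matching other places were shared out.

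Cdk1, the mitotic kinase, stood at 17.6 TPM in replicate 1 and at 24.0 TPM in replicate 2 (20.8 ± 4.53 TPM). Its leading transcripts were both coding, Cdk1-207 with 66.9% in replicate 1 and Cdk1-202 with 52.2% in replicate 2. Of the phosphatases that activate it, Cdc25b was at 13.8 and 12.8 TPM and Cdc25c at 3.14 and 7.12 TPM. Cdc25b over Cdc25a gave a log2 ratio of -0.00 and -0.22, within the spread, and Cdc25b was led by Cdc25b-202 in replicate 1 and Cdc25b-201 in replicate 2. On the deposited lengths Wee1, the opposing kinase, was higher than Cdc25a in both libraries at 25.7 and 23.1 TPM. The log2 ratio of Cdc25a over Wee1 was -0.90 and -0.62 (-0.76 ± 0.19). Wee1-201, the only transcript of Wee1 in the tables, has 1941 bases there, whereas GENCODE M21 gives it 3419. The ratio at that length was not computed. Ccnf, a cyclin that serves as the substrate subunit of a ubiquitin ligase and binds no Cdk, was at 27.9 and 23.7 TPM.

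**Figure D2:**
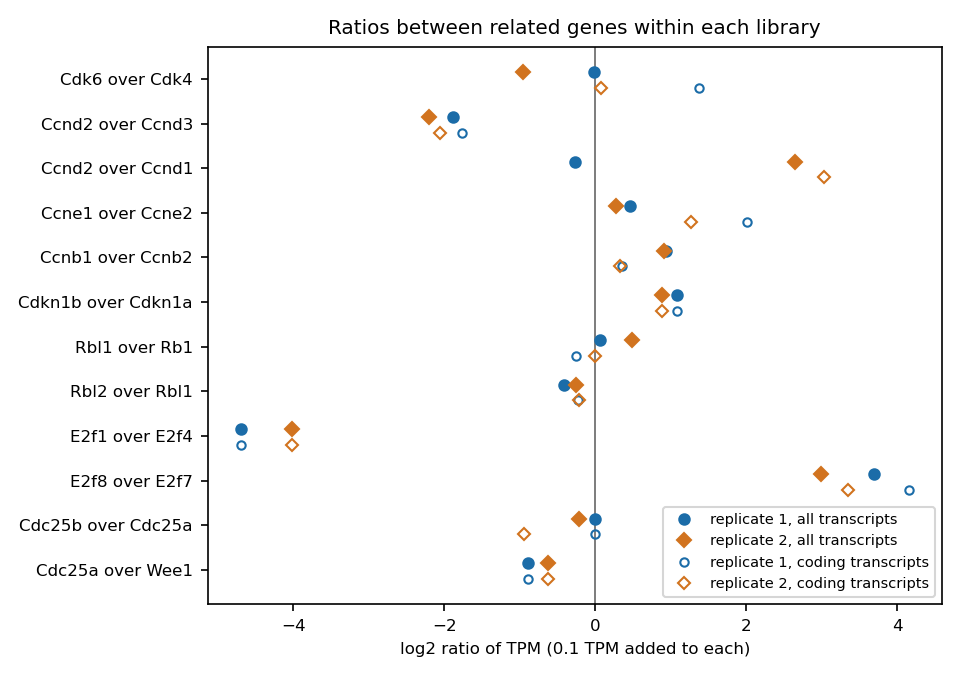
Log2 ratio of TPM between 12 pairs of related genes within each library, with 0.1 TPM added to each gene, for replicate 1 (circles) and replicate 2 (diamonds), on all transcripts (filled) and on coding transcripts (open). Ratios over genes with no count are not drawn, nor is the coding ratio of Ccnd2 over Ccnd1 in replicate 1; Ccnb1 over Ccnb2 has coinciding points, and Cdk6 over Cdk4 lies at or left of 0 on all transcripts and right of 0 on coding ones.

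Cip/Kip inhibitors bind cyclin and Cdk complexes directly. Cdkn1b (p27) was the most abundant, at nearly the same level in both libraries, 14.4 and 14.9 TPM (14.7 ± 0.37 TPM). Cdkn1a (p21), a target of p53, was at 6.77 and 8.04 TPM, and Cdkn1b exceeded it by a log2 ratio of 1.08 and 0.88 (0.98 ± 0.14). Cdkn1c (p57), an imprinted gene linked to stem cell quiescence, was at 5.56 TPM in replicate 1 and at 1.03 TPM in replicate 2. Its counts were 316 (95% exact Poisson interval 282 to 353) and 33 (22.7 to 46.3). These intervals are not scaled for depth, which was higher in replicate 1, and cover counting error only. On TMM-scaled counts the log2 difference was 1.68. Of the 13 stem cell markers, 9 were higher in replicate 1 and 4 in replicate 2, with 2 more than 2-fold higher in replicate 1 (13.1% of all genes were) and 0 in replicate 2. Of the mature neutrophil and monocyte markers, 8 of 10 were more than 2-fold higher in replicate 2. The part of these markers in the Cdkn1c difference was not tested.

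Ink4 inhibitors were represented mainly by Cdkn2c (p18), at 22.7 TPM in replicate 1 and at 4.84 TPM in replicate 2, from 971 and 153 counts. All of its TPM was on coding transcripts, with Cdkn2c-201 leading in replicate 1 at 74.5% and Cdkn2c-202 in replicate 2 at 56.2%. Cdkn2d (p19) had no count in replicate 1, a limit of 0.0814 TPM, and 47 counts or 2.27 TPM in replicate 2. Cdkn2a and Cdkn2b, the neighbouring tumor suppressor genes at chr4:89274471-89294653 and chr4:89306299-89311039, had no count in either library. Those zeros allow at most 0.124 and 0.222 TPM for Cdkn2a and 0.0736 and 0.131 TPM for Cdkn2b. Cdkn3, a phosphatase that acts on the Cdk activation loop, had no count in replicate 1 and 43 counts or 3.68 TPM in replicate 2.

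Pocket proteins restrain E2f factors, and all 3 were expressed at similar levels. Rbl1 (p107) was at 42.4 and 41.2 TPM (41.8 ± 0.79 TPM), on all transcripts the smallest SD relative to its mean among them. Rb1 was at 40.5 and 29.5 TPM (35.0 ± 7.77 TPM) and Rbl2 (p130) at 31.6 and 34.4 TPM (33.0 ± 1.98 TPM). On coding transcripts alone all 3 were lower in replicate 2. Rbl1 was then at 29.2 and 23.2 TPM, Rb1 at 34.8 and 23.4 TPM and Rbl2 at 24.8 and 20.0 TPM. The ratio of Rbl1 over Rb1 did not exceed the spread, at 0.27 ± 0.29 on the log2 scale, and its mean was -0.13 on coding transcripts. Rbl2 stood below Rbl1 by a log2 ratio of -0.42 and -0.26 (-0.34 ± 0.11). Rb1 exons share 408 bases with Lpar6 and 488 with Rcbtb2 on the opposite strand, genes that had 1003 and 222 counts and 933 and 395 counts.

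Among E2f factors, repressors held most of the RNA. E2f4, the main partner of p130 and p107 in resting cells, was at 133 TPM in replicate 1 and at 145 TPM in replicate 2 (139 ± 8.68 TPM) and made up 50.4% and 55.3% of the family's summed TPM. E2f8, an atypical repressor that acts without a DP partner, followed with 60.6 and 56.4 TPM (58.5 ± 2.93 TPM), or 23.0% and 21.5%. Its close relative E2f7 was at 4.60 and 7.04 TPM, and the log2 ratio of E2f8 over E2f7 was 3.69 and 2.99 (3.34 ± 0.50). E2f6, a repressor that works with Polycomb proteins, was at 15.7 and 17.6 TPM, and E2f5 had no count in replicate 1 and 40 counts or 1.36 TPM in replicate 2.

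Activating E2f factors stood below E2f4 in both libraries. E2f1 was at 5.03 and 8.87 TPM, a log2 ratio over E2f4 of -4.70 and -4.02 (-4.36 ± 0.48), and E2f2 was at 7.62 and 10.4 TPM. E2f3 was at 37.3 TPM in replicate 1 and at 15.7 TPM in replicate 2, from 1539 and 953 counts. As for Ccnd1, the libraries differed in the transcripts that held the reads. E2f3-202, a processed transcript entered in the tables with 216 bases, held 84.0 and 6.97 counts and, being short, 73.5% and 27.5% of the gene's TPM. GENCODE M21 gives E2f3-202 a length of 389 bases, and its TPM at that length was not computed. The coding transcript E2f3-201 held 1455 and 946.03 counts and stood at 9.90 and 11.4 TPM, close to E2f2 in both libraries. The leading transcript also differed between libraries for E2f1 (E2f1-202 and E2f1-201), E2f7 (E2f7-204 and E2f7-201) and E2f8 (E2f8-201 and E2f8-202), all of them coding. E2f8 exons share 610 bases with the noncoding gene Gm2788 on the opposite strand, which had 269 and 29 counts.

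The remaining members act outside a single phase. Ccnh and Cdk7 form the Cdk-activating kinase, with Ccnh at 21.5 and 19.9 TPM and Cdk7 at 1.18 and 3.25 TPM. Cdk7's counts were 282 and 440, and its TPM rests on a length of 7595 bases in the deposited tables, whereas GENCODE M21 gives the same transcript 1988 bases. Cdk9, the kinase that releases paused RNA polymerase II, was at 35.2 and 24.6 TPM, and Ccnc, a Mediator cyclin, at 16.7 and 10.7 TPM. Ccng1, a p53 target, was at 21.9 and 26.7 TPM, its relative Ccng2 at 5.80 and 7.68 TPM, and Cdk5, best known from neurons, at 6.55 and 4.22 TPM. Coding transcripts held 11.2% and 28.3% of Ccng2's TPM, which was led by the retained-intron transcripts Ccng2-204 (47.8%) in replicate 1 and Ccng2-203 (37.9%) in replicate 2. Leads also differed for Ccnh (Ccnh-204 and Ccnh-201), Cdk9 (Cdk9-202 and Cdk9-201) and Ccnc (Ccnc-208, a processed transcript with 71.8% in replicate 1 and 0% in replicate 2, and the coding Ccnc-202 with 43.5% in replicate 2).

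Across the set, leading transcripts were compared between the libraries. Among the 38 members detected in both, 10 had a single annotated transcript in the tables, and of the 28 with several, 14 had the same leading transcript in both libraries and 14 did not. Coding transcripts led in both libraries in 32 of the 38. These shares were not computed over all genes, so they are not read as traits of the set. Less than 50% of the TPM was on coding transcripts, in at least 1 library, for 6 genes (Ccnd1, Cdk4, Ccne2, E2f3, Ccnc and Ccng2), against 28.4% of the 9769 coding genes detected in both. The set's count is lower than that background share, which was not matched for level or number of transcripts. In 38 genes such a gap is not read as a trait of the set. The median coding share of the members was 100% in both libraries, and over all coding genes it was 100% in replicate 1 and 88.9% in replicate 2.

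**Figure D3:**
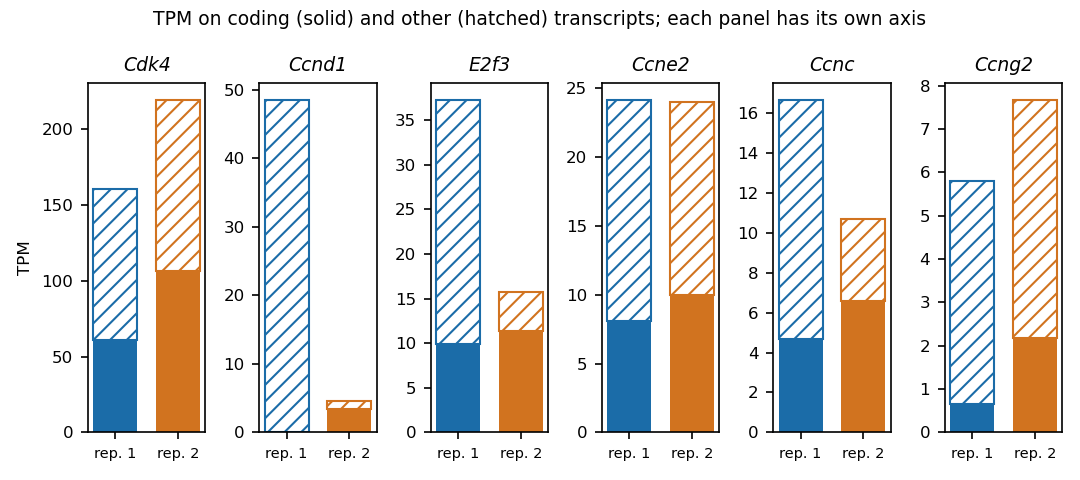
TPM on coding transcripts (solid) and on all other transcripts (hatched) of the 6 genes with under 50% of TPM on coding transcripts in at least 1 library, in replicate 1 (left bar) and replicate 2 (right bar); each panel has its own axis from 0. The solid parts of E2f3 are at 9.90 and 11.4 TPM, and Ccnd1 has almost none in replicate 1.

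Most levels were close in the 2 libraries. Of the 41 genes detected in either library, 34 differed by no more than 2-fold on the log2(TPM + 1) scale, which understates the differences of low genes. The median absolute log2 difference was 0.40, against 0.53 over all 12862 genes detected in either library. More than 2-fold higher in replicate 1 were 4 genes, against 13.1% of all genes: Ccnd1 (log2 difference 3.15), Cdkn2c (2.02), Cdkn1c (1.69) and E2f3 (1.20). More than 2-fold higher in replicate 2 were 3 genes, against 14.0% of all genes: Cdkn3 (-2.23), Cdkn2d (-1.71) and E2f5 (-1.24). Both counts lie somewhat below the background share, which was not matched for level, and in 41 genes such a gap is not read as a trait of the set. With TMM-scaled counts, which are not adjusted for length, the counts were 2 and 6.

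The 4 genes higher in replicate 1 differed in how they held under other measures. On coding transcripts alone, the log2 difference was -2.15 for Ccnd1 and -0.19 for E2f3, so both left that group, and on TMM-scaled counts it was 0.25 and -0.23. Cdkn2c and Cdkn1c kept differences over 2-fold in each of these alternatives. The 3 genes higher in replicate 2 were all at 0 in replicate 1, the more deeply sequenced library. Of the 2272 coding genes with 1 to 4 TPM and at least 10 counts in replicate 2, 485 (21.3%, exact binomial 95% interval 19.7 to 23.1%) likewise had no count in replicate 1. The interval treats genes as independent and does not cover variation between libraries. Markers of other cell types went both ways. More than 2-fold higher in replicate 2 were 8 of 10 of mature neutrophils and monocytes and 4 of 6 of early myeloid cells. So were 4 of 6 B cell markers and 1 of 5 T and NK markers. Of the T and NK markers, 3 were more than 2-fold higher in replicate 1, and 0 of 9 erythroid markers differed that far. The part of these markers in the result was not tested.

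**Figure D4:**
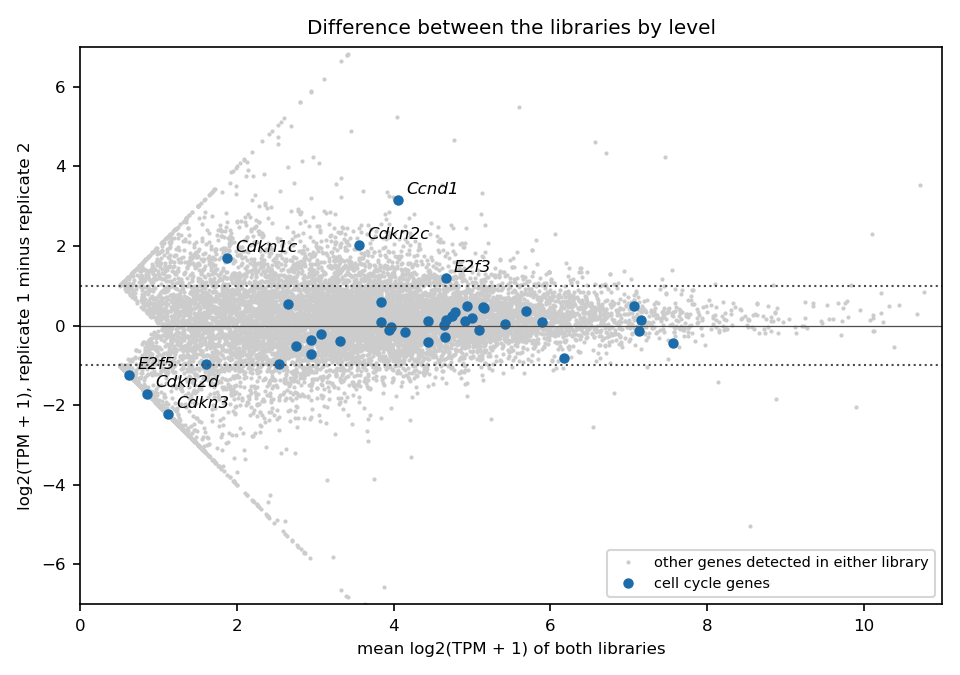
Difference between the libraries, replicate 1 minus replicate 2 on the log2(TPM + 1) scale (vertical axis), against the mean of both libraries on that scale (horizontal axis), for the 41 cell cycle genes (blue) and all other genes detected in either library (grey); dotted lines mark 2-fold. The 7 named genes lie beyond the lines, and the members with a mean above 5 lie within them.

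Most partners and regulators of these genes were expressed as well. Of 42 further genes of the cycle, 39 were detected in both libraries, against 45.5% of coding genes. More than 2-fold higher were 1 in replicate 1 and 5 in replicate 2, against 13.1% and 14.0% of all genes, and their medians were 23.2 and 21.4 TPM. All 9 genes of E2f partners and the DREAM repressor complex were detected, led by Tfdp1, the DP subunit that E2f factors need to bind DNA, at 107 and 129 TPM, and by Lin37 at 50.8 and 27.5 TPM. Of 21 Cdk partners and other Cdks, 18 were detected, led by Ccnl1 at 111 and 66.4 TPM and Cdk16 at 79.0 and 65.9 TPM. The exceptions were Mnat1, the third subunit of the Cdk-activating kinase, at 0.73 and 3.37 TPM, Cdk14 at 0.04 and 2.44 TPM, and Cdk5r2 with no count. All 12 ubiquitin and checkpoint regulators were detected, led by Trp53 at 192 and 131 TPM and Fbxo5, an inhibitor of the anaphase-promoting complex, at 61.9 and 36.9 TPM. Coding transcripts held all of Tfdp1's TPM and 94.7% and 87.1% of Trp53's, but 0% and 4.38% of Ccnl1's, 43.0% and 37.6% of Cdk16's, 13.5% and 35.2% of Lin37's and 19.8% and 38.4% of Fbxo5's.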

How the data were processed

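Total RNA from 2 pools of 100 hematopoietic stem cells was measured in 1 group. Expected counts, TPM and FPKM per gene and transcript, and the percent of a gene's TPM on each transcript, were deposited by the authors under column names that RSEM writes, per the file headers. Expected counts share out reads that match several places. Build mm10 and annotation GENCODE M4 are given in the text deposited with each sample; the aligner, program versions, trimming and strand handling were not given in the sources used here.

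Symbols, matched for 42462 of 43346 gene identifiers, transcript types and exon overlaps came from GENCODE M21 on GRCm38, the same build, and promoters from RefSeq. Exons of 20 members overlap exons of a gene on the other strand, and reads of such pairs cannot be told apart without strand. Detection needed 1 TPM and 10 counts. Differences use log2(TPM + 1), ratios add 0.1 TPM. A mean difference or ratio was set against its SD over 2 libraries; there was no group to test against, so no p-value is given. The fold rule was tested on simulated data. Alternatives were thresholds, pseudocounts, FPKM, posterior mean TPM, TPM rescaled over coding genes, TMM and DESeq2 scaling of rounded counts, leaving out each library, and, chosen after seeing the data, coding transcripts only.

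The members and lists were chosen with earlier results of these data known. Named genes are all members, the 2 partner genes of highest mean TPM per group, those not detected in both libraries, and transcripts of members whose lead differs or is noncoding, with Cdkn2a, Cdkn2c, E2f3 and Ccnd2 in any case. Ccna2-203, the overlapping genes and the lengths of Cdk6, Cdk7 and Wee1 were named after their values were seen. Intervals and the 3-count limit cover counting error only, since PCR reads without molecular identifiers are not independent molecules. Software was Python 3.11.15 (numpy 2.4.6, pandas 2.3.3, scipy 1.17.1, matplotlib 3.10.9) and R 4.3.3 (edgeR 4.0.16, DESeq2 1.42.0).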

Additional observations from a re-analysis of the deposited data

How the results depend on the processing

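With 2 libraries of 1 group, a value is known only to the spread between them, and a zero in 1 library leaves only the limit of 3 counts. No paired analysis was possible because there is a single group. The median over the members was 12.4 as FPKM, 67.6 with TPM rescaled over coding genes, 24.2 TPM over members detected in both libraries and 14.8 TPM on coding transcripts. The activator minus inhibitor difference was 0.41 with TMM, 0.43 with DESeq2 size factors, 0.26 over members detected in both libraries and 0.62 on coding transcripts, positive throughout. Members over 2-fold higher in replicate 1 numbered 2 with TMM, DESeq2 and coding transcripts. Those higher in replicate 2 numbered 5 with a pseudocount of 0.1 TPM and with rescaled TPM, 6 with TMM and DESeq2, and 0 over genes detected in both libraries, which leaves out the 3 by construction. The E2f3 difference reversed to -0.23 with TMM, -0.26 with DESeq2 and -0.19 on coding transcripts, and the Ccnd1 difference to -2.15 on coding transcripts; it was 0.25 with TMM and 0.26 with DESeq2, and that of E2f5 -0.89 as FPKM. Scaled counts have no adjustment for transcript length, and coding transcripts leave out the short ones; other causes were not tested. The median difference over all genes was 0.10 on the TPM scale, 0.16 as FPKM, -0.07 with rescaled TPM, -0.03 with TMM and -0.05 with DESeq2. With either library left out, 38 to 41 members were detected, the median was 16.7 to 21.7 TPM, the activator minus inhibitor difference 1.00 to 1.44 and the S, G2 and M minus G1 difference -0.96 to -0.13. Of 61 alternative values of the summary results, 45 stayed within the spread between libraries or within 1.5 times the count. Of 84 alternative ratios, 74 stayed within the spread. Ratios, medians and differences of medians with a library left out do so by construction, because each library lies within the SD of the mean. A ratio with a wide SD, such as Cdkn2c over Cdkn2d (4.79), also passes easily. These tallies are therefore no measure of robustness. Of 49 alternative differences of the 7 genes over 2-fold apart, 42 kept their direction and stayed beyond 2-fold, though their sizes moved widely for the 3 genes at 0 in replicate 1.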
